A study of Mus musculus with 18 samples.

Results

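Transcripts of stabilized and control mammary epithelium were compared at E16.5 (E for embryonic day), when the mammary bud of the mouse sprouts into the tissue beneath it. All 10 libraries of that day were used, 5 per genotype, out of 18 in the series. The other 8, from E13.5, entered the fit of the spread and the tests of a difference between stages. Of 24376 genes in the count table, 17269 passed the filter on low counts and were tested.

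Stabilized embryos were Krt14Cre/wt; Ctnnb1 flox3/wt. The keratin 14 promoter drives Cre in surface epithelium and its appendages, not in mammary cells alone. Cre excises exon 3 from the one floxed copy of Ctnnb1, the gene of β-catenin, and leaves a protein that escapes breakdown, beside the product of the normal copy. Controls were Ctnnb1 flox3/wt littermates without Cre, so the floxed allele was shared by both genotypes, and the presence of Cre and the loss of exon 3 cannot be told apart. All E16.5 embryos were females on a mix of C57Bl/6 and NMRI. Epithelium of mammary buds 1 to 3 was freed with enzymes and dissected, and each library pooled 2 to 3 embryos of 1 litter and genotype. Litters are not given per library, so libraries may share a litter.

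Control libraries held 27659003 to 36922108 estimated counts and stabilized libraries 29304083 to 36082518. A count was found for 16935 to 18165 genes per control library and for 17803 to 20719 per stabilized library. The first principal component of the 10 libraries took 61.5% of the variance and separated the genotypes, with controls between -131.1 and -105.05 and stabilized libraries between 97.27 and 132.84. 2 stabilized libraries stood apart. In replicate 4, 24.6% of all counts came from 12 satellite-like predicted genes, against 0.0205 to 0.304% in the other 9 libraries. In replicate 1, the summed level of 64 epidermal differentiation genes was 4.18% of the scaled library total, against 0.614 to 0.794% in the other 4 stabilized libraries. Stabilized replicate 5, among these, was at 0.663%. Values without replicate 1 or 4 stand beside the genes in which that library lay apart.

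β-Catenin is the effector of canonical Wnt signalling. When Wnt ligands bind Frizzled and Lrp receptors, β-catenin is spared from destruction, enters the nucleus and activates target genes with factors of the LEF/TCF family. Signalling of this kind is needed for the placodes of both mammary glands and hair follicles, and high signalling later marks the hair matrix, where hair shaft keratins are made. Antagonists among its own targets, such as Axin2, Notum and the Dkk proteins, limit the signal.

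Levels are in CPM, counts per 1000000 of the scaled library total. CPM are not divided by gene length, so levels are not compared between genes. Errors of means are SD (n = 5), fold changes are stabilized over control on the log2 scale with their SE, and p-values are edgeR's, adjusted over the 17269 genes, with 0.05 as the limit of a call. Values of single libraries are given in the order of replicates 1 to 5.

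Ctnnb1 itself (ENSMUSG00000006932, chromosome 9, 120929216 to 120960507, in GRCm38/mm10) was counted as a whole gene, so its counts do not show the excised exon. Controls held 1208, 1203, 1320.3, 1112 and 1395 CPM, and stabilized libraries held 2223, 2218, 3211, 1693 and 2043 CPM. Every stabilized library was above every control, and the log2 fold change was 0.87 ± 0.15 (adjusted p = 9.02e-05). Krt14, the basal keratin whose promoter drives Cre, held 565, 706, 724, 725 and 634 CPM in controls and 929, 494, 502, 307 and 365 CPM in stabilized libraries. The groups overlapped through stabilized replicate 1, and the log2 fold change of -0.37 ± 0.22 did not pass (adjusted p = 0.189). Without that library it was -0.69 and passed (adjusted p = 0.00235).

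In all, 3838 genes rose (22.2% of those tested) and 3356 fell (19.4%), together 41.7%. A rise of at least 2-fold was called for 14.6% and a fall of at least 2-fold for 6.21%. The groups did not overlap in CPM for 36.3% of genes, 18.4% with stabilized libraries higher and 17.9% with them lower. Rises were larger than falls. Among genes with more than 3 counts in each genotype, 500 rose and 51 fell by at least 16-fold. A further 276 genes that rose had 0 counts in all 5 controls, and 200 of these had a count in each stabilized library. The opposite, a gene that fell to 0 counts in all 5 stabilized libraries, was seen for 16 genes, 6 of them with a count in each control. The median log2 fold change of all tested genes was 0.097, and -0.006 when scaled by library totals alone. The epithelial pools are bulk samples, so fewer cells of a type and less RNA per cell cannot be told apart, here or below.

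Wnt target genes were the first group examined. Of 27 tested, 19 rose and 5 fell, beside 22.2% and 19.4% of all tested genes. The median log2 fold change was 1.75, beside 0.10 for all genes. Without stabilized replicate 1, 17 of 26 rose. Axin2, a scaffold of the complex that destroys β-catenin, held 23.2, 30.4, 26, 22.3 and 37.8 CPM in controls and 254, 261, 317, 199 and 244 CPM in stabilized libraries. The groups lay far apart, with a log2 fold change of 3.19 ± 0.17 (adjusted p = 2.85e-11). Lef1, a nuclear partner of β-catenin, went from 15.1, 32.4, 29.7, 25.7 and 31.2 CPM to 171, 177, 133, 136 and 207 CPM, a log2 fold change of 2.62 ± 0.20 (adjusted p = 3.11e-09). Apcdd1, a membrane inhibitor of Wnt, rose from 63.4 ± 11.2 to 737 ± 71.2 CPM, by 3.54 ± 0.15. Sp5, a zinc-finger repressor induced by β-catenin, had 4 counts over all 5 controls and 54.3, 56.8, 56.2, 26.1 and 50.2 CPM in stabilized libraries. Replicate 4 was the low one for Sp5, and the groups did not overlap (log2 fold change 10.62 ± 0.45, 10.77 without it, adjusted p = 2.87e-12).

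Lgr5, Ccnd1 and Myc are common readouts of the pathway in other epithelia, and all 3 fell. Lgr5, a receptor for R-spondins and a stem cell marker, held 178, 219, 154, 185 and 237 CPM in controls and 65.5, 52.3, 54.2, 58.4 and 55.9 CPM in stabilized libraries, a log2 fold change of -1.76 ± 0.23 (adjusted p = 4.87e-06). Ccnd1, cyclin D1 of the G1 phase, fell from 1576 ± 193 to 373 ± 91.5 CPM, by 2.08 ± 0.20 (adjusted p = 8.14e-08). Myc, a growth regulator, fell from 256 ± 36.8 to 53.6 ± 18.4 CPM, by 2.25 ± 0.29 (adjusted p = 6.15e-06). In each of these 3 genes every stabilized library lay below every control. Nkd2 and Adamts18 were the others that fell.

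**Figure D1:**
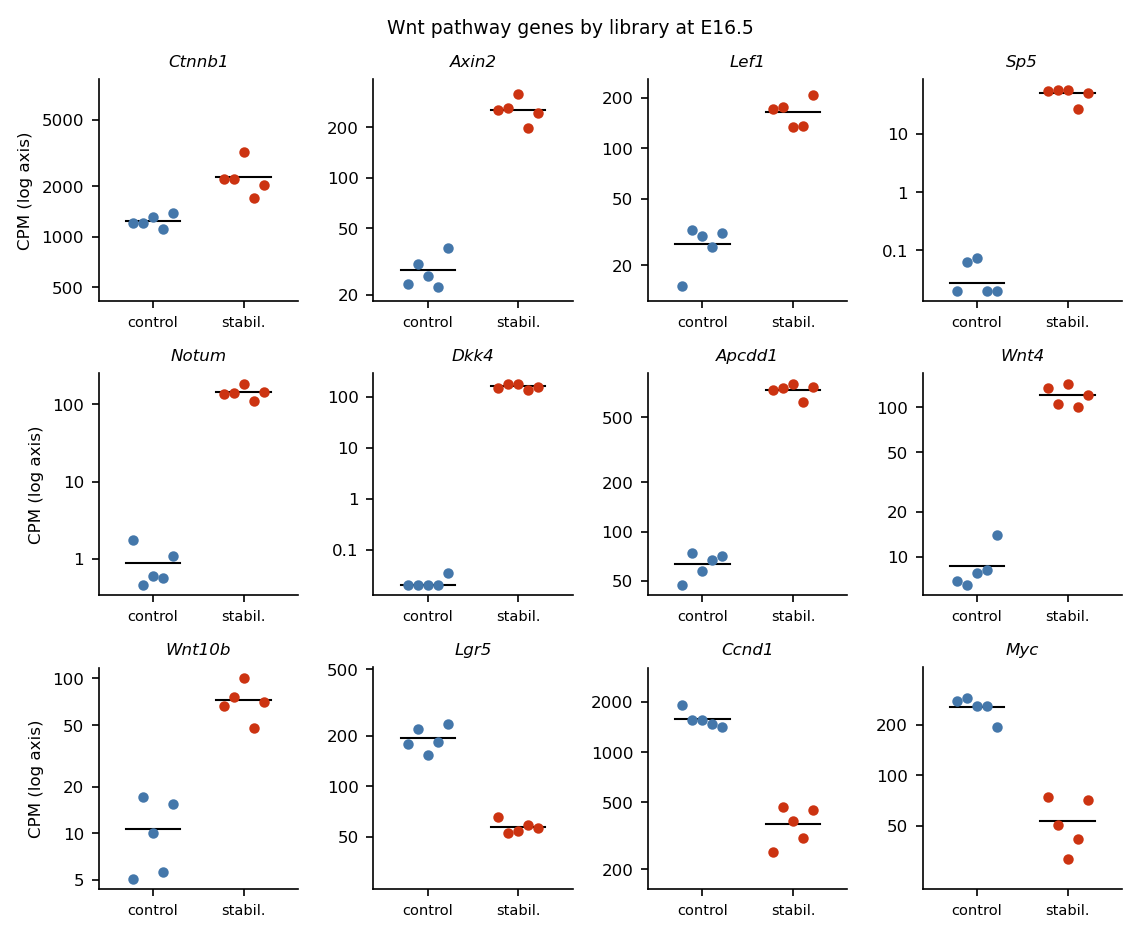
Wnt pathway genes in each E16.5 library: CPM on a log axis against genotype, with 1 point per library (replicates 1 to 5 from left to right) and a bar at the group mean; values under 0.02 CPM are drawn at 0.02. Ctnnb1, Axin2, Lef1, Sp5, Notum, Dkk4, Apcdd1, Wnt4 and Wnt10b are higher in all 5 stabilized libraries than in any control, and Lgr5, Ccnd1 and Myc are lower in all 5.

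Wnt ligands rose nearly as a family: 15 of 16 tested members rose, beside 22.2% of all tested genes. The median log2 fold change of the ligands was 3.28. Their summed level was 0.0112 to 0.0167% of the scaled total in controls and 0.0505 to 0.0749% in stabilized libraries. Wnt4 held 6.92, 6.43, 7.82, 8.21 and 13.9 CPM in controls and 134, 105, 144, 101 and 121 CPM in stabilized libraries, without overlap (log2 fold change 3.81 ± 0.19, adjusted p = 1.31e-11). Wnt10b, one of the earliest ligands of the mammary line, held 5.05, 17.2, 10.1, 5.6 and 15.5 CPM and 66, 76.2, 101, 47.8 and 70.6 CPM in the same order, a log2 fold change of 2.76 ± 0.30 (adjusted p = 8.39e-07). Wnt10a rose by 3.28 ± 0.21 and Wnt7b by 3.18 ± 0.27. The non-canonical ligand Wnt5a rose less, from 58.3 ± 8.29 to 131 ± 19.3 CPM, by 1.17 ± 0.15. Wnt5b, at 0.22, did not pass.

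Receptors did not move one way. Of 16 tested, 4 rose and 6 fell, beside 22.2% and 19.4% of all tested genes. The Frizzled receptor Fzd1 held 24.3, 19.5, 25.8, 20.9 and 22.3 CPM in controls and 275, 150.1, 215, 125 and 169 CPM in stabilized libraries, a log2 fold change of 3.05 ± 0.20 (adjusted p = 7.3e-10). Fzd6, at 1.16 ± 0.12, also rose. Ror1, a receptor for Wnt5a, fell from 96.7 ± 10.9 to 26.2 ± 5.76 CPM, by 1.88 ± 0.16 (adjusted p = 2.2e-08). The co-receptors Lrp5 and Lrp6 fell by 0.69 and 0.52.

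Among secreted antagonists, 8 of 16 rose and 3 fell, beside 22.2% and 19.4% of all tested genes. Dkk4, which blocks Lrp co-receptors, had 1 count in all controls together, against 149.5, 181, 175, 135 and 158 CPM in stabilized libraries, which puts the 95% interval of the ratio at 4308 to 948260, for counting error alone. Notum, an enzyme that strips the lipid from Wnt proteins, held 1.75, 0.453, 0.601, 0.570 and 1.07 CPM in controls and 136, 139.8, 186, 112 and 143 CPM in stabilized libraries (log2 fold change 7.31 ± 0.33, adjusted p = 1.08e-11). The Sfrp antagonists, decoys that bind Wnt proteins, went the other way. Sfrp1 held 228, 136, 207, 186 and 159.6 CPM in controls and 4.44, 33.4, 12.7, 31.5 and 33.5 CPM in stabilized libraries, and fell by 2.99 ± 0.42 (adjusted p = 2.49e-05), with the lowest value in stabilized replicate 1. Sfrp2 fell from 36.2 ± 5.78 to 7.02 ± 1.07 CPM, by 2.37 ± 0.20.

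Hedgehog signalling uses the ligand Shh, the receptor Ptch1, which is also a target, and the Gli factors. Of 14 tested genes, 10 rose and 1 fell, beside 22.2% and 19.4% of all tested genes. Shh held 0.0292, 0.226, 0.376, 0.335 and 0.143 CPM in controls and 90.5, 104, 141, 84 and 129 CPM in stabilized libraries, a log2 fold change of 8.96 ± 0.62 (adjusted p = 9.62e-09). The target Gli1 held 1.49, 2.55, 1.84, 1.04 and 2.11 CPM and 189, 146, 165, 125 and 155 CPM in the same order, a log2 fold change of 6.43 ± 0.48 (adjusted p = 2.46e-08). Both were near 0 in controls and at about the same level in all 5 stabilized libraries. Ptch1 rose from 35.8 ± 3.16 to 1082 ± 265 CPM, by 4.92 ± 0.25. The gene that fell was Smo, the signal transducer, by 0.31.

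Of 31 Bmp and TGF-β genes, 22 rose and 2 fell, beside 22.2% and 19.4% of all tested genes. The ligands Bmp2 and Bmp4, both used in placodes and in the hair matrix, were among the largest. Bmp4 held 0.321, 1.75, 1.88, 1.61 and 1.71 CPM in controls and 135, 141, 106, 144 and 153 CPM in stabilized libraries, a log2 fold change of 6.55 ± 0.33 (adjusted p = 6.27e-11). Bmp2 rose from 3.93 ± 1.47 to 188 ± 31.2 CPM, by 5.58 ± 0.24, and Tgfb2 from 11.4 ± 3.94 to 252 ± 51 CPM, by 4.46 ± 0.28. Id1, a target of Bmp signalling, rose from 30.4 ± 10.2 to 351 ± 81.4 CPM, by 3.53 ± 0.32 (adjusted p = 1.36e-07). The ligand Bmp7 was at 247 ± 13.6 to 282 ± 52.9 CPM, and its difference of 0.19 ± 0.14 did not pass (adjusted p = 0.282).

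In the Fgf and Erk list, 13 of 30 genes rose and 6 fell, beside 22.2% and 19.4% of all tested genes. The ligand Fgf20 held 1.11, 0.808, 0.827, 0.201 and 0.535 CPM in controls and 13.47, 23.3, 24.5, 20.4 and 19.7 CPM in stabilized libraries, a log2 fold change of 4.85 ± 0.33 (adjusted p = 7.64e-10). The receptor Fgfr3 rose from 5.07 ± 1.21 to 55.4 ± 14.8 CPM, by 3.45 ± 0.28. Etv5, a factor induced by Erk, held 563, 527, 544, 483 and 521 CPM in controls and 126, 199.99, 162, 122 and 184 CPM in stabilized libraries, and fell by 1.73 ± 0.14 (adjusted p = 1.15e-08). Dusp6, the phosphatase that feeds back on Erk, fell from 643 ± 62.9 to 411 ± 28.4 CPM, by 0.65 ± 0.12.

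Of 21 Notch genes, 7 rose and 2 fell, beside 22.2% and 19.4% of all tested genes. The ligand Dll1 held 288, 324, 315, 268 and 269 CPM in controls and 12, 24.4, 18.1, 17.4 and 25.1 CPM in stabilized libraries, a log2 fold change of -3.92 ± 0.25 (adjusted p = 5.86e-10). Hey1, a target repressor, fell from 97 ± 15.3 to 21.2 ± 6.73 CPM, by 2.19 ± 0.23. The ligand Jag1 rose from 68.2 ± 11.7 to 241 ± 45.7 CPM, by 1.82 ± 0.14, and Hes6, a repressor of the Hes family, by 1.75 ± 0.18. In the Eda and NF-κB list, 5 of 24 genes rose and 6 fell, shares near the 22.2% and 19.4% of all tested genes, and the list's median of -0.17 ran from -0.26 to 0.01 over the ways of scaling. Tnfrsf11a, the receptor RANK, fell from 9.62 ± 0.836 to 1.24 ± 0.543 CPM, by 2.94 ± 0.32, and Nfkb2 fell from 55.1 ± 6.66 to 22 ± 3.33 CPM, by 1.32 ± 0.21. Tnfaip3, a brake on NF-κB, fell by 1.27 ± 0.24, or 1.59 without stabilized replicate 1, with its highest stabilized value, 38.1 CPM, in replicate 1. Edar, the ectodysplasin receptor, rose by 0.49 ± 0.15, with overlapping groups. The call was lost with library totals alone (adjusted p = 0.077) and with stabilized replicates 1 and 5 left out (0.0731).

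Of the 8 largest fitted rises, Flg is an epidermal gene, highest in stabilized replicate 1, and the others are hair genes. All had 0 to 3 counts in controls, so their order depends on the fit. Of 28 hair matrix regulators, the factors that switch on hair shaft genes, 18 rose and 2 fell, with a median of 3.41. Beside this and the placode count below, 22.2% of all tested genes rose and 19.4% fell. Hoxc13, which activates hair keratin genes, held 0, 0.614, 0.977, 0.804 and 0.500 CPM in controls and 129, 83.4, 87.7, 67.1 and 102 CPM in stabilized libraries, a log2 fold change of 7.36 ± 0.82 (adjusted p = 2.73e-06). Foxn1, mutated in nude mice, rose from 3.04 ± 1.12 to 90.8 ± 30.8 CPM, by 4.90 ± 0.41. Msx2 rose from 3.43 ± 0.687 to 146 ± 22.5 CPM, by 5.41 ± 0.41, Dlx3 by 3.95 ± 0.30 and Sp6 by 6.60 ± 0.33. Prdm1, a repressor that guides terminal differentiation, rose by 4.49 ± 0.27, and Cux1, a homeodomain repressor of the inner root sheath, from 173 ± 16.46 to 1390.5 ± 283 CPM. Gata3, which serves both the inner root sheath and the luminal mammary line, was at 223 ± 29.4 to 281 ± 78.9 CPM, and its 0.34 ± 0.17 did not pass. Of 24 hair placode genes, 18 rose and 2 fell. They include Cxcl14, a chemokine, which rose from 137 ± 20.0 to 2845 ± 634 CPM, by 4.38 ± 0.18.

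All 15 hair keratin genes tested rose, with a median log2 fold change of 13.56, or 13.41 with genes at 0 in controls set to a bound. These keratins form the filaments of the hair shaft. Genes so low in controls could pass the filter through the stabilized libraries, so the count is a description and is not read against all genes. Their summed level was at most 0.000191% of the scaled total in any control and 0.541 to 0.869% in stabilized libraries. Krt31 (ENSMUSG00000048981, chromosome 11, 100046646 to 100050551) had 2 counts in all controls together and 585, 457, 330.3, 384 and 616 CPM in stabilized libraries, and the interval of that ratio ran from 9792 to 292090. Krt34 (ENSMUSG00000043485, chromosome 11, 100037347 to 100041554) had 5 counts in controls and 779, 970.2, 569, 763 and 744 CPM in stabilized libraries, a log2 fold change of 14.32 ± 0.70 (adjusted p = 2.86e-09). The type II partner Krt81 (ENSMUSG00000067615, chromosome 15, 101459061 to 101463751) had 7 counts in controls and 1280.0, 1319, 716, 864 and 1306 CPM in stabilized libraries (log2 fold change 14.40 ± 0.54, adjusted p = 2.39e-12). For these genes the stabilized libraries lay within about the same range, and no control held as much as 1 CPM. Krt33a and Krt83 had 20 and 6 counts in all controls and rose by 12.38 ± 0.71 and 13.82 ± 0.53. Krt84 had 3 counts, with a counting interval of the ratio of 5676 to 80448. Krt36 had 0 and was at least 7614-fold higher against a floor of 3 counts over the controls. Members of this family are similar in sequence, and how reads were split between them is not known, so single members are uncertain.

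The keratin-associated proteins, which crosslink those filaments, were tested in 52 of 58 cases, and all 52 rose. Of these, 22 had 0 counts in all 5 controls, and a gene with counts in stabilized libraries alone could pass the filter through them, so the share is not read against the 22.2% of all genes. Their summed level was 0.497% in stabilized replicate 3 and 1.26 to 2.16% in the other 4, against at most 0.000381% in controls. Krtap8-1 held 0.0292, 0.356, 0.338, 0.0335 and 0.107 CPM in controls and 1981, 2352, 545, 1258 and 1907 CPM in stabilized libraries, lowest in replicate 3 (log2 fold change 13.19 ± 0.66, adjusted p = 1.67e-10). Krtap3-1 held 0, 0.485, 0.150, 0.0335 and 0 CPM and 1733, 3169.6, 281, 1932 and 2734 CPM in the same order, again lowest in replicate 3. Krtap6-2 had 1 count in all controls and 141, 199.54, 129.6, 114 and 145 CPM in stabilized libraries, with a counting interval of the ratio of 3953 to 870040. For Krtap15 and Krtap19-9b, with 1 and 2 counts in all controls, the intervals were 2351 to 517450 and 3369 to 100510. Krtap16-1, Krtap6-1 and Krtap1-4 had 0 counts in every control and were at least 18488-, 9736- and 7271-fold higher. Gprc5d, a receptor of the hair cortex, likewise had 1 count in all controls and 389, 602, 269, 461 and 409 CPM in stabilized libraries.

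Positions in GRCm38 were also counted. Of 585 windows of 1000000 bases with at least 10 tested genes, 7 had at least 75% of their genes higher. A pair on chromosome 16 (88000001 to 89000000 and 89000001 to 90000000), with keratin-associated protein genes, had 20 of 20 higher each. Many genes of such windows were at or near 0 in controls and could pass the filter through stabilized libraries, so these shares are not read against other windows. The window on chromosome 11 from 99000001 to 100000000, with type I keratins and further keratin-associated proteins, had 46 of 52 higher. The type II keratin window on chromosome 15 (101000001 to 102000000) had 24 of 31. A pair on chromosome 3, from 92000001 to 94000000, holds the epidermal differentiation complex and had 27 of 28 and 10 of 12. The last, on chromosome 9 (3000001 to 4000000), holds satellite-like genes and had 10 of 12, which rest on stabilized replicate 4.

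The stretch before the start of hair genes was read in RefSeq (GRCm38.p6) for 2 short motifs, because the members moved together. The letters bound by LEF/TCF factors were searched as CTTTG followed by 2 bases that are each A or T, on both strands in the 250 bases before the start, and TATAAA on the gene's strand with its first base from -45 to -20. Of all 32851 windows in the table, 14.8% held the LEF/TCF letters and 2.14% the TATA letters. For the 15572 windows of tested genes the shares were 11.1% and 1.88%. Of 9 hair keratin genes matched, out of 15, 5 (55.6%) held the first and 4 (44.4%) the second. Of 46 matched keratin-associated protein genes, 15 (32.6%) and 28 (60.9%) did. For Wnt targets that rose, the LEF/TCF letters were in 3 of 18 windows (16.7%), and for all genes that rose in 11.4%. The TATA letters were not particular to hair genes. Of 49 windows of epidermal differentiation genes that rose, 26.5% held them and 14.3% the LEF/TCF letters. A match is a description of the letters, not of binding. The last 150 bases before the start are printed for 3 hair genes that hold 1 or both motifs and for the Wnt target Sp5. Capitals mark the motifs, which do not overlap, and in Krt31 the LEF/TCF letters are on the other strand. Krt31 is at chr11:100050552-100050701, minus strand, Krt34 at chr11:100041555-100041704, minus strand, Krtap4-6 at chr11:99665961-99666110, minus strand and Sp5 at chr2:70474773-70474922, plus strand.
Krt31: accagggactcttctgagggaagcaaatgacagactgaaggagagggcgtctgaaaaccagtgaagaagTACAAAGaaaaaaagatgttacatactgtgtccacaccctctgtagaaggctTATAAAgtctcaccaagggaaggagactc
Krt34: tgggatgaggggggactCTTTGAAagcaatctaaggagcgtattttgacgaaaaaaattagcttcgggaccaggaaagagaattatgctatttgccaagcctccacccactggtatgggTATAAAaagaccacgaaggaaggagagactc
Krtap4-6: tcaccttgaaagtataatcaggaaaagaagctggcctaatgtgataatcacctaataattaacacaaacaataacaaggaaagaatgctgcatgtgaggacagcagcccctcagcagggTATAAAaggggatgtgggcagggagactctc
Sp5: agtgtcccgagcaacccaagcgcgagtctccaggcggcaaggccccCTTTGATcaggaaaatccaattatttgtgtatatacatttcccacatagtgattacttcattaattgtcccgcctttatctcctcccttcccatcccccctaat
Krtap4-6 had 0 counts in every control and 129.6, 337, 73.5, 275 and 266 CPM in stabilized libraries, at least 10786-fold higher against a floor of 3 counts over the controls.

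Inner root sheath and companion layer genes, which form the sleeve around the shaft, rose in all 19 tested cases, with a median of 8.32. Of the 19, 4 had 0 counts in all 5 controls and could pass the filter through stabilized libraries. The share is therefore not read against all genes. Tchh, trichohyalin, held 1.93, 3.88, 6.65, 5.46 and 2.28 CPM in controls and 4434, 1886, 1132, 1318 and 2105 CPM in stabilized libraries (log2 fold change 9.07 ± 0.61, adjusted p = 8.92e-09). Replicate 1 was the highest, and the list's summed level was 1.81% there and 0.498 to 0.642% in the other 4. Without it the log2 fold change of Tchh was 8.64, and 17 of 17 members rose, with a median of 7.47. Krt75, a keratin of the companion layer, held 0, 0.291, 0.150, 0 and 0 CPM in controls and 352, 139, 158, 157 and 284 CPM in stabilized libraries (log2 fold change 11.22 ± 0.94). Krt72, a keratin of the inner root sheath, rose by 10.61 ± 0.73, and Padi3, which modifies trichohyalin, by 4.06 ± 0.32.

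**Figure D2:**
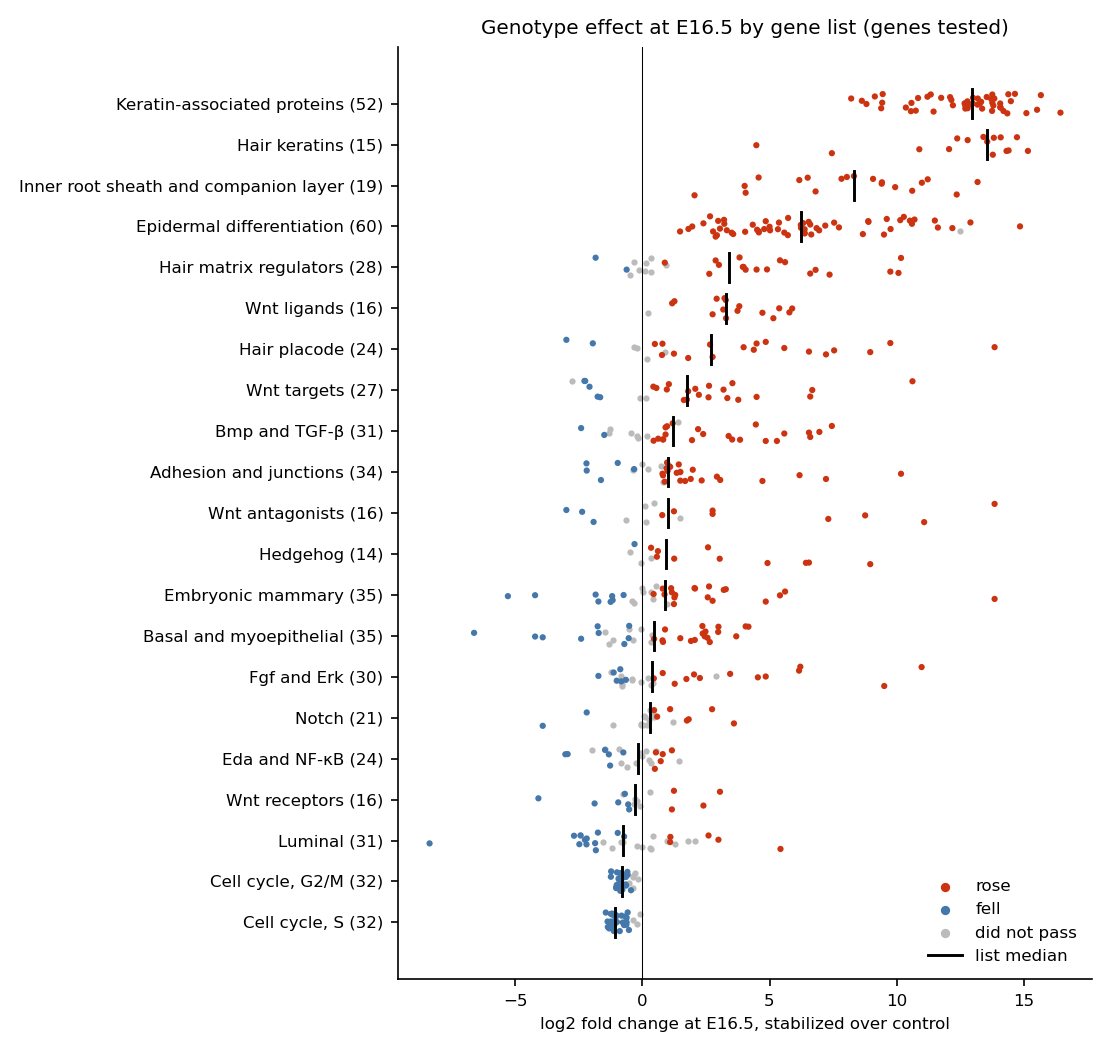
Log2 fold change at E16.5 for each tested gene of 21 lists (1 point per gene, position within a row random), with the list median as a bar and the number of genes tested in brackets. Keratin-associated proteins and hair keratins lie farthest right, with medians of 12.96 and 13.56, and the cell-cycle lists lie to the left of 0; fitted values of genes at 0 in controls are not bounds.

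Epidermal differentiation genes, the proteins and enzymes of the outer skin layers, rose in 59 of 60 cases, with a median of 6.24. Of the 60, 11 had 0 counts in all 5 controls and could pass the filter through stabilized libraries. The count is therefore not read against all genes. The size of the rise depended on stabilized replicate 1, in which the list's summed level was highest. Krt1, a keratin of the layers above the basal one, held 13.3, 37, 30.6, 59.4 and 63 CPM in controls and 6370.0, 438, 685, 358 and 314 CPM in stabilized libraries, a log2 fold change of 5.33 ± 0.91 (adjusted p = 0.000221). Without replicate 1 it was 3.47 (adjusted p = 7.56e-06). Its partner Krt10 held 18.8, 58.3, 43.4, 85.4 and 106 CPM in controls and 6963, 288, 652, 409 and 332 CPM in stabilized libraries, and its log2 fold change of 4.79 ± 0.95 became 2.76 without that library. Lor, loricrin of the cornified envelope, held 0.0876, 0.323, 0.601, 0.168 and 6.68 CPM and 1331, 39.9, 187, 30.9 and 53.5 CPM in the same order, with 7.73 ± 1.57 on the log2 scale, or 5.64 without it. The groups did not overlap in any of these 3 genes, replicate 1 aside or not.

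The filaggrin gene Flg had 3 counts in all controls together and 3312, 39.8, 134, 56.5 and 11.6 CPM in stabilized libraries. Its log2 fold change was 14.85 ± 2.45, and 11.30 without replicate 1. Klf4, a factor of terminal differentiation, rose from 27.2 ± 8.64 to 251 ± 179 CPM, by 3.21 ± 0.40, or 2.65 without it. Evpl, envoplakin, rose by 3.51 ± 0.29, or 3.13 without it, Sptlc3, of sphingolipid synthesis, by 2.93 ± 0.25, or 2.70, and Grhl1, a barrier regulator, by 3.32 ± 0.27. Over the list, 56 of 56 rose without replicate 1, with a median of 4.82, and 57 of 58 with replicates 1 and 5 left out together, with a median of 4.94. Stress and immediate-early genes were also highest in replicate 1, at 0.847% of the scaled total against 0.229 to 0.333% in the other stabilized libraries and 0.226 to 0.425% in controls. Of 22 such genes 5 rose and 5 fell, shares near the 22.2% and 19.4% of all tested genes. The list's median of 0.40 became -0.20 without replicate 1. Hspb1, a small heat shock protein gene, rose from 53.5 ± 9.74 to 436 ± 209.6 CPM, by 3.03 ± 0.30, or 2.69 without replicate 1. Their part in the result was not tested. Krt6a, a keratin of stressed epidermis and the companion layer, held 8.7, 13.3, 17.7, 28.3 and 24.1 CPM in controls and 3931, 746, 783, 657 and 527 CPM in stabilized libraries, a log2 fold change of 6.17 ± 1.04, or 5.20 without replicate 1.

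**Figure D3:**
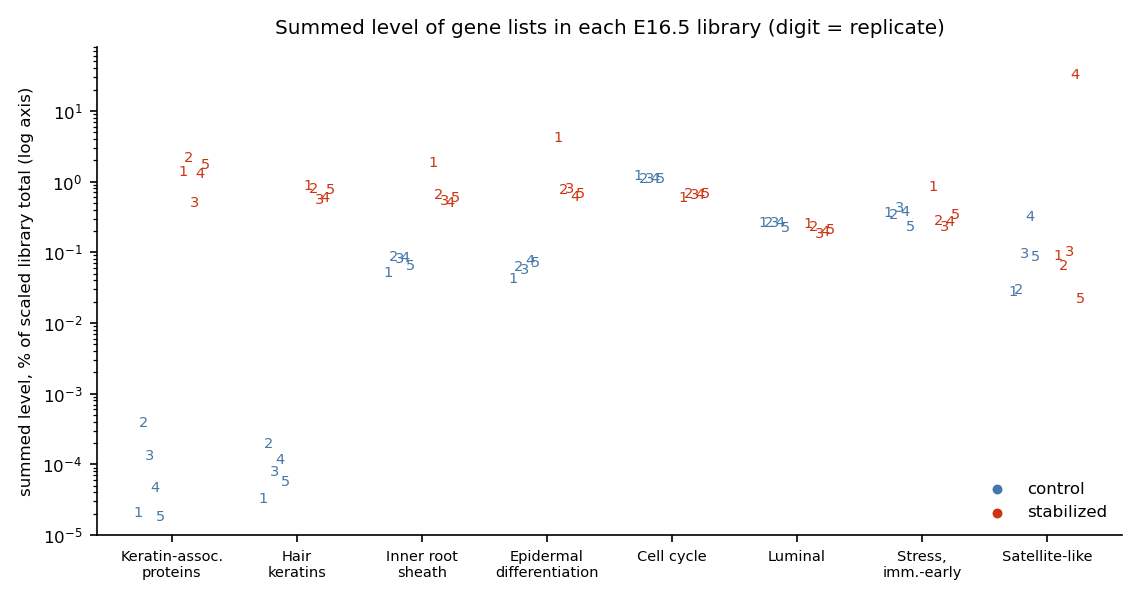
Summed level of 8 gene lists in each E16.5 library, as a percent of the scaled library total on a log axis; each digit is a replicate, blue for control and red for stabilized. Stabilized replicate 1 stands above its group for inner root sheath (1.81%), epidermal (4.18%) and stress genes (0.847%), and replicate 4 for satellite-like genes.

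Cell junctions of stratified epithelium rose with these genes. Of 34 adhesion and junction genes, 22 rose and 5 fell, or 21 and 5 without replicate 1. Beside this, 22.2% of all tested genes rose and 19.4% fell. Dsp, the desmosomal plaque protein desmoplakin, held 796, 1022, 951, 934 and 1111 CPM in controls and 12674, 5504, 6259, 5352 and 6794 CPM in stabilized libraries, highest in replicate 1 (log2 fold change 2.93 ± 0.21, 2.63 without it). Gja1, connexin 43, rose from 332 ± 25.1 to 1063 ± 259 CPM, by 1.68 ± 0.14, and the tight junction gene Cldn1 from 17.7 ± 2.03 to 147 ± 47.6 CPM, by 3.06 ± 0.22, or 2.84 without replicate 1. The 5 that fell included Epcam, Cldn3 and Cldn7, which are also luminal genes.

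Basement membrane genes split by chain. Of 30 matrix genes, 11 rose and 8 fell, beside 22.2% and 19.4% of all tested genes. Lama3 and Lamb3, chains of laminin 332, the anchoring laminin of skin, rose by 2.65 ± 0.12 and 3.69 ± 0.25. Col17a1, a hemidesmosome collagen, held 181, 218, 204, 172 and 239.6 CPM in controls and 1211, 1177, 1189, 760.3 and 1203 CPM in stabilized libraries, lowest in replicate 4 (log2 fold change 2.45 ± 0.19, 2.55 without it, adjusted p = 6.58e-09). Lama1, a chain of embryonic laminin, held 203, 250.3, 203, 167 and 227 CPM and 11.1, 20.1, 14.9, 15.2 and 13.4 CPM in the same order, and fell by 3.81 ± 0.34 (adjusted p = 1.34e-07). Col4a1, of the collagen IV network, fell from 1012 ± 108 to 371 ± 89.1 CPM, by 1.45 ± 0.16, or 1.31 without replicate 4.

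Of 31 luminal genes tested, 12 fell and 5 rose, beside 19.4% and 22.2% of all tested genes, and 14 did not pass. The median was -0.77. The list's summed level overlapped between genotypes, at 0.221 to 0.263% of the scaled total in controls and 0.183 to 0.25% in stabilized libraries. Luminal cells line the ducts and later secrete milk. Krt8, a keratin of simple epithelium, held 291, 229, 253, 270.1 and 183 CPM in controls and 15.6, 93.7, 40.8, 54.5 and 51.8 CPM in stabilized libraries, a log2 fold change of -2.26 ± 0.32 (adjusted p = 2.48e-05). Its partner Krt18 held 219, 193, 205, 254 and 129.6 CPM and 23.5, 76.6, 42.2, 71.6 and 61 CPM in the same order, a log2 fold change of -1.86 ± 0.25 (adjusted p = 7.32e-06). Replicate 1 was lowest for both, and without it the values were -2.03 and -1.67. Epcam, an adhesion protein of simple epithelia, held 413, 409, 431, 403 and 418 CPM in controls and 179, 248, 189, 218 and 225 CPM in stabilized libraries (log2 fold change -0.97 ± 0.11, adjusted p = 6.71e-07). The claudin gene Cldn7 fell from 87 ± 14.5 to 18.9 ± 5.01 CPM, by 2.20 ± 0.20, and Pgr, the progesterone receptor, from 32 ± 2.64 to 9.51 ± 2.59 CPM, by 1.75 ± 0.27, or 1.59 without replicate 1. Elf5, a regulator of the luminal line, was at 14 ± 4.32 to 18.5 ± 5.49 CPM and did not pass (0.40 ± 0.26, adjusted p = 0.244). Krt7, also counted as luminal but found in other simple and glandular epithelia too, rose from 3.13 ± 0.955 to 135 ± 75 CPM, by 5.43 ± 0.41, or 5.03 without replicate 1.

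Basal and myoepithelial genes split. Of 35, 18 rose and 9 fell, beside 22.2% and 19.4% of all tested genes. The basal keratins did not move together, since Krt14 did not pass. Krt5 held 358, 520.2, 462, 355 and 599 CPM in controls and 3855, 2287, 2693, 1684 and 2261 CPM in stabilized libraries (log2 fold change 2.48 ± 0.23, adjusted p = 4.3e-08). Krt15 rose from 47.9 ± 24.8 to 797 ± 94.5 CPM, by 4.06 ± 0.41. Trp63, the master factor of stratified epithelium, held 76.2, 103, 88.4, 87.4 and 106 CPM and 788, 704, 756, 728 and 684 CPM, control first, with little spread in either group (log2 fold change 2.99 ± 0.12, adjusted p = 1.41e-12). Actg2, smooth muscle actin of myoepithelium, held 35.2, 45.6, 50.4, 66.2 and 32 CPM in controls and 0.995, 0.442, 0.341, 0.286 and 0.272 CPM in stabilized libraries, a log2 fold change of -6.62 ± 0.71 (adjusted p = 1.03e-06). Acta2 was at 20.3 ± 8.68 to 9.2 ± 9.36 CPM and did not pass. The integrin Itga6 fell by 0.52 ± 0.15, a call lost with the offsets of the deposited normalized table (adjusted p = 0.0992) and with stabilized replicates 1, 4 and 5 left out (0.205).

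Of 35 embryonic mammary genes, 19 rose and 8 fell, beside 22.2% and 19.4% of all tested genes. The list shares Wnt10b, Dkk4, Msx2 and Fgf20 with the hair placode or hair matrix, and these were among those that rose. The members of smallest adjusted p, Lef1, Wnt10a and Fgf20, also rose. Without stabilized replicate 1, 19 rose and 9 fell. Tbx3, required for the mammary placode, held 386, 479, 465.9, 404 and 422 CPM in controls and 289, 297, 246, 201 and 255 CPM in stabilized libraries, and fell by 0.74 ± 0.12 (adjusted p = 7.7e-05). Pthlh, the peptide by which the bud instructs its mesenchyme, fell from 161 ± 49.1 to 67.5 ± 16 CPM, by 1.25 ± 0.21 (adjusted p = 0.000102). The neuregulin receptor Erbb4 held 7.997, 17.7, 14.1, 12.3 and 20.2 CPM in controls and 0.0383, 0.126, 0.0681, 0.500 and 1.09 CPM in stabilized libraries, a log2 fold change of -5.29 ± 0.64 (adjusted p = 5.22e-06). Erbb3 fell from 359.6 ± 11.6 to 159.6 ± 39.5 CPM, by 1.17 ± 0.15.

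Large falls were looked for among called genes above a mean log2 CPM of 1 whose groups do not overlap. Crispld2, a secreted protein of branching organs (ENSMUSG00000031825, chromosome 8, 119992438 to 120052793), held 321, 187, 245, 268 and 209 CPM in controls and 0.115, 0.631, 0.170, 0.714 and 0.984 CPM in stabilized libraries, a log2 fold change of -8.85 ± 0.54 (adjusted p = 1.69e-09). Itga9, an integrin for tenascin, held 203, 200.32, 213, 183 and 235 CPM and 1.38, 8.52, 5.45, 5.75 and 9.67 CPM in the same order (log2 fold change -5.07 ± 0.42, adjusted p = 5.55e-08). Tgm2, tissue transglutaminase, fell from 45 ± 7.75 to 0.786 ± 0.361 CPM, by 5.82 ± 1.19. The others were Cytl1 (-5.42 ± 1.10), Stk32b (-5.33 ± 1.13) and Mcpt2 (-5.15 ± 1.03). With stabilized replicates 1, 4 and 5 left out together, Tgm2 and Cytl1 lost their calls (adjusted p = 0.0602 and 0.0668).

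**Figure D4:**
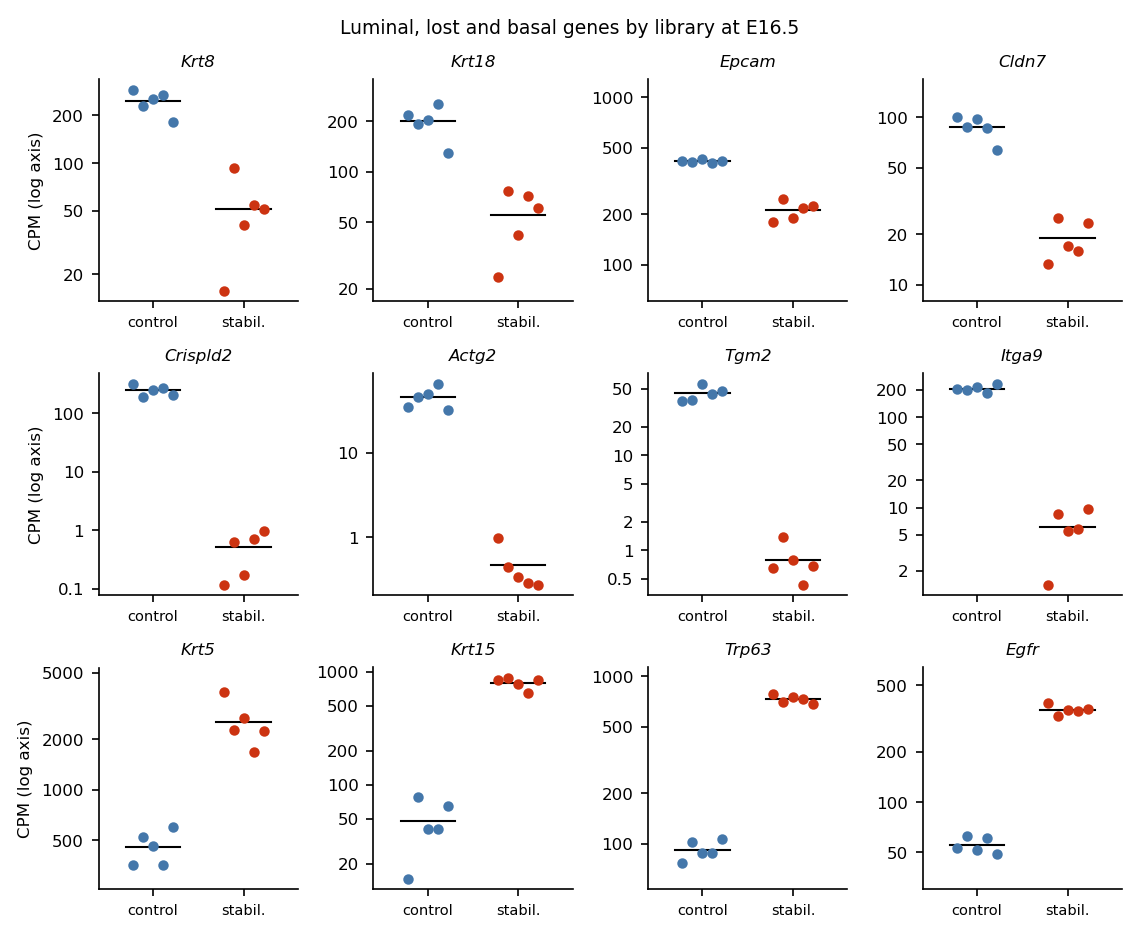
Luminal, strongly reduced and basal genes in each E16.5 library: CPM on a log axis against genotype, 1 point per library (replicates 1 to 5 from left to right) and a bar at the group mean. Krt8, Krt18, Epcam, Cldn7, Crispld2, Actg2, Tgm2 and Itga9 are lower in all 5 stabilized libraries than in any control, and Krt5, Krt15, Trp63 and Egfr are higher in all 5.

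Growth factor receptors and hormone genes moved both ways. Egfr held 53.3, 62.6, 51.8, 60.6 and 49 CPM in controls and 390.3, 327, 356, 350.1 and 359 CPM in stabilized libraries, a log2 fold change of 2.68 ± 0.14 (adjusted p = 3.61e-11), and of 16 Egf family genes 6 rose and 3 fell, or 4 and 4 without replicate 1. Of 26 hormone and IGF genes, 10 rose and 6 fell. Beside both lists, 22.2% of all tested genes rose and 19.4% fell. Igf2, a fetal growth factor, held 313, 374, 302, 280.2 and 290.0 CPM in controls and 1979, 1793, 1363, 1324 and 2337 CPM in stabilized libraries (log2 fold change 2.50 ± 0.17, adjusted p = 8.32e-10). Vdr, the vitamin D receptor needed for hair cycling, rose from 9.33 ± 1.62 to 57.9 ± 13.6 CPM, by 2.63 ± 0.22. Igfbp4, which binds IGFs, fell from 417 ± 55 to 179 ± 34 CPM, by 1.22 ± 0.13.

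Genes of the cell cycle fell together. Of 32 S-phase genes, 29 fell, with a median of -1.06, and of 32 G2/M genes, 26 fell, with a median of -0.80. Beside both lists, 19.4% of all tested genes fell. The summed level of the cell-cycle genes was 1.07 to 1.21% of the scaled total in controls and 0.587 to 0.676% in stabilized libraries. Mcm3, a subunit of the replicative helicase, held 302, 273, 283, 249 and 264 CPM in controls and 101, 108, 128, 84 and 112 CPM in stabilized libraries, a log2 fold change of -1.36 ± 0.11 (adjusted p = 7.21e-09). Pcna, the sliding clamp of replication, fell from 278 ± 18.9 to 168 ± 15.9 CPM, by 0.72 ± 0.15. The DNA ligase gene Lig1 fell by 1.10 ± 0.12. Rpa2, which coats single-stranded DNA, fell by 1.44 ± 0.13, but by 0.67 and without a call (adjusted p = 0.08) with those offsets. Top2a, which untangles chromosomes, held 935, 792, 737, 798 and 809 CPM and 410.5, 443, 503, 443 and 421 CPM, control first, and fell by 0.87 ± 0.12 (adjusted p = 1.05e-05). The mitotic kinase genes Aurkb and Bub1b fell by 1.23 ± 0.15 and 1.03 ± 0.14. Mki67, the common marker of cycling cells, was at 1291 ± 82.6 to 1008 ± 111 CPM, and its -0.36 ± 0.17 did not pass (adjusted p = 0.0901). It passed with scaling by library totals (adjusted p = 0.0308) and in the 10 E16.5 libraries alone (0.0186).

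Of 29 genes in the list of cell-cycle inhibitors and p53 targets, 15 rose and 4 fell, or 14 and 4 without replicate 1. Beside this, 22.2% of all tested genes rose and 19.4% fell. Cdkn1a, the inhibitor p21 and a target of p53, held 24.5, 37.5, 33.8, 41.4 and 43.4 CPM in controls and 508, 268, 319, 253 and 297 CPM in stabilized libraries, highest in replicate 1 (log2 fold change 3.19 ± 0.27, 2.98 without it, adjusted p = 4.54e-08). Cdkn1c, the inhibitor p57, rose from 50.5 ± 11.5 to 199 ± 52.6 CPM, by 1.98 ± 0.21, and Gadd45g, a growth arrest gene, from 7.51 ± 2.03 to 99.5 ± 15.7 CPM, by 3.73 ± 0.22. Sfn, 14-3-3σ of stratified epithelium, rose from 134 ± 21.6 to 1022 ± 451 CPM, by 2.93 ± 0.26. Trp53 itself fell by 0.85.

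The genotype effect at E16.5 was tested against that at E13.5, where 4 control and 4 stabilized libraries had been made from buds of both sexes, so that day and sex makeup cannot be told apart. The effects differed for 5562 genes, 32.2% of those tested, 15.6% more positive at E16.5 and 16.6% more negative. For the cell cycle the direction was opposite. At E13.5, 61 of 64 cell-cycle genes rose, with a median of 1.20, and the difference between stages was more negative at E16.5 for 62 of 64. Top2a changed by 1.38 ± 0.14 at E13.5 (adjusted p = 8.07e-07), and the difference between the effects was -2.26 ± 0.19 (adjusted p = 4.72e-08). For Mki67 the values were 1.59 ± 0.19 and -1.94 ± 0.25 (adjusted p = 7.12e-06 for the difference).

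Dll1 also changed direction, with 3.16 ± 0.28 at E13.5 and a difference of -7.08 ± 0.38 (adjusted p = 4.68e-10). So did Ror1, at 2.05 ± 0.19 and -3.93 ± 0.25, and the Erk target Etv5, at 1.17 ± 0.16 and -2.90 ± 0.21. Wnt4 and Wnt5a went from a fall to a rise, with differences of 4.97 ± 0.27 and 2.43 ± 0.22. Of 16 Wnt ligands, 9 had a more positive effect at E16.5. Axin2, whose effect of 0.45 ± 0.17 at E13.5 did not pass, differed by 2.75 ± 0.24 (adjusted p = 8.32e-08). At E13.5 it held 312 ± 53.6 CPM in controls and 424 ± 57.2 CPM in stabilized libraries (n = 4). At E16.5 it held 27.9 ± 6.36 and 255 ± 42.0 CPM, so both genotypes were lower than at E13.5. Lef1 likewise held 611 and 331 CPM at E13.5, against 26.8 and 165 CPM at E16.5, control first. For the Hedgehog targets Ptch1 and Gli1 no difference between stages was called (0.03 ± 0.32, adjusted p = 0.975, and -0.54 ± 0.61, adjusted p = 0.552). Cdkn1a rose more at E13.5, by 5.24 ± 0.34, a difference of -2.05 ± 0.38 (adjusted p = 0.000471). Of the 1716 genes called at both stages, 893 had the same sign, 502 went from higher to lower and 321 from lower to higher.

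**Figure D5:**
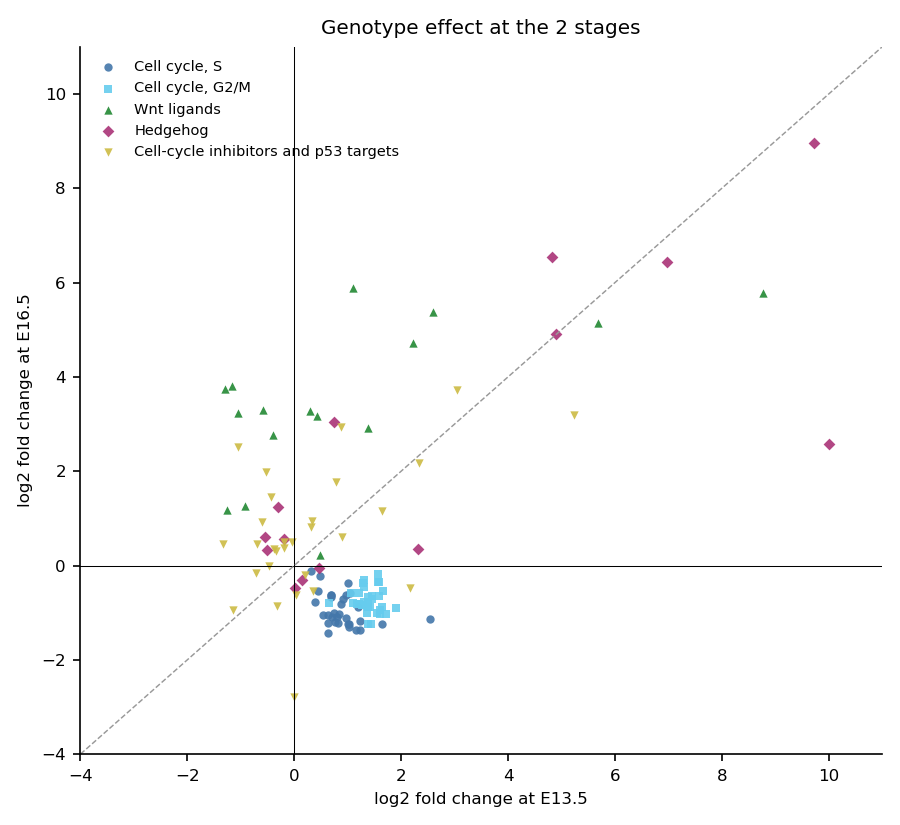
Log2 fold change at E16.5 (vertical) against that at E13.5 (horizontal), 1 point per gene, with the line of equal effects dashed. Drawn are cell-cycle genes, Wnt ligands, Hedgehog genes, and cell-cycle inhibitors with p53 targets. The 2 stages share no library. Cell-cycle genes lie in the lower right, and Wnt ligands lie mostly above the line, where 9 of 16 had a called difference.

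Markers of other cell types summed to small shares in both genotypes, but several lists were higher in every stabilized library than in any control. Endothelial genes summed to at most 0.00162% of the scaled total in any library. Of 8 tested, 0 passed in edgeR (1 at an unadjusted p under 0.05, and 1 in DESeq2). Immune genes summed to 0.0025 to 0.00345% in controls and 0.00113 to 0.00145% in stabilized libraries. Of 13 immune genes, 0 passed in edgeR (4 were lower at an unadjusted p under 0.05, and 3 in DESeq2). Mesenchyme genes summed to 0.0389 to 0.0795% in controls and 0.101 to 0.138% in stabilized libraries. Of 18 tested, 5 were higher and 2 lower, beside 22.2% and 19.4% of all tested genes. Col1a1, a chain of collagen I and a defining gene of fibroblasts, was at 69.3 ± 45.7 to 46.4 ± 15.2 CPM and did not pass. The fibroblast gene Col5a1 rose from 146 ± 19.4 to 357 ± 68.6 CPM, by 1.29 ± 0.14, or 1.39 without stabilized replicate 4. Of 12 dermal papilla genes 5 rose and 0 fell, beside 22.2% and 19.4% of all tested genes. Spon1 was among those 5 and rose from 1.33 ± 0.948 to 92.7 ± 24.1 CPM. Dermal papilla genes summed to 0.021 to 0.0326% in controls and 0.041 to 0.0604% in stabilized libraries. Their part in the results above was not tested.

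Of 14 neural and Schwann cell genes, 5 rose and 1 fell. Beside this and the counts below, 22.2% of all tested genes rose and 19.4% fell. The neural and Schwann cell list summed to 0.00524 to 0.0063% of the scaled total in controls and 0.0147 to 0.0184% in stabilized libraries. The neuronal tubulin gene Tubb3 held 2.33, 7.01, 5.75, 4.69 and 5.75 CPM in controls and 85, 72, 76.8, 50.8 and 75.7 CPM in stabilized libraries (log2 fold change 3.82 ± 0.26, adjusted p = 9.88e-10), and Isl1, a factor of neurons and Merkel cells, rose from 0.378 ± 0.512 to 27.1 ± 3.57 CPM. Of 11 melanocyte genes, 5 rose, among them Tyrp1, a pigment enzyme, from 0.497 ± 0.305 to 10.8 ± 4.04 CPM. The melanocyte list summed to 0.0115 to 0.0188% in controls and 0.0202 to 0.0303% in stabilized libraries. Of 8 muscle genes, Pax7 rose, by 5.66 (adjusted p = 0.0152), and Myh3 fell, by 6.43 ± 1.82, through control replicate 5, which held 11.7 CPM. Without that library its adjusted p was 0.0653. Of 3 adipocyte genes 2 rose, among them Fabp4, from 0.0601 ± 0.117 to 5.63 ± 3.77 CPM.

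Of 13 mitochondrially encoded genes 2 rose in edgeR, mt-Nd4 and mt-Atp6, but 10 were higher at an unadjusted p under 0.05 and 10 in DESeq2, with a list median of 0.70. mt-Nd4 rose by 0.68 ± 0.23 with overlapping groups, and lost the call when control replicate 3, control replicate 5, stabilized replicate 2 or stabilized replicate 4 was left out (adjusted p = 0.0517 to 0.0638). Of 12 satellite-like genes 11 were called higher. Gm10720, one of them, held 0, 0.323, 0.150, 0.771 and 0 CPM in controls and 1.8, 0.126, 0.886, 908 and 0 CPM in stabilized libraries. The groups overlap, and without replicate 4 none of the 12 was called in edgeR and its log2 fold change was 1.48 (adjusted p = 0.551).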

How the data were processed

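RNA-seq libraries (Ovation SoLo, per the labels' protocols) were processed by the authors with tools that include Salmon 0.99.0, Trimmomatic 0.39, FastQC 0.11.8, MultiQC 1.9 and DESeq2 (as 3.15), and mm10. These names are per the submitters' processing notes, which give no order, with settings, annotation and strand use not given in the sources used here. The authors deposited estimated counts per gene, whole in the file, and a normalized signal, used here only as the source of offsets in 1 alternative. Counts of all 18 libraries were fitted in edgeR 4.0.16 (R 4.3.3): filterByExpr with a minimum count of 10, TMM scaling, a quasi-likelihood fit (robust) of 4 group means, and Benjamini-Hochberg adjustment over 17269 genes. P-values measure the spread between pools, some of which may share a litter. Libraries of E16.5 held 27659003 to 36922108 counts. Satellite-rich and epidermis-rich libraries were kept, and results were recomputed without them. Alternatives covered scaling, filters, DESeq2 1.42.0, the E16.5 libraries alone, a replicate block and each library left out.

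The genes to be compared and the 40 gene lists were chosen with earlier results of these data known, so counts over lists are descriptions without a test. Genes were named by a rule: Ctnnb1, Krt14, Axin2 and Lef1, the 8 largest changes in each direction among called genes whose groups do not overlap, without predicted genes and above a mean log2 CPM of 1, from each list the 3 called members of smallest adjusted p (1 for lists of other cell types and quality), and further members for their role, these last after their values were seen. Some genes that the rule picks are not reported here. The scripts were tested on simulated data with less spread and fewer changed genes than these data, and without an outlying library. That test therefore does not give the error rates of these results. A difference between stages is given where each of the 4 groups holds more than 3 counts of the gene, which leaves out 25 of 138 named genes. Intervals of ratios cover counting error at 95%. Positions are from GENCODE M21 (GRCm38/mm10).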

Additional observations from a re-analysis of the deposited data

Results flagged for a closer look

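In each group of 5, a library was noted when its gap to the next library took an unusually large share of the group's range. This happened in 39 of 312 groups examined (12.5%), where chance gives about 1 in 20. In 20 of them stabilized replicate 1 was the high one. Its CPM were 3312 for Flg, 6370.0 for Krt1, 6963 for Krt10, 1331 for Lor, 3931 for Krt6a, 569.7 for Klf4, 614 for Evpl and 84.9 for Sptlc3. For Dsp it held 12674, for Cldn1 230.2, for Krt7 265, for Cdkn1a 508 and for Tnfaip3 38.1 CPM. As a percent of the scaled total, the same library held 1.81 of inner root sheath, 4.18 of epidermal, 1.11 of embryonic mammary and 2.56 of adhesion genes. It also held 0.126% of Egf family, 0.422% of cell-cycle inhibitor and p53 target, and 0.847% of stress genes. It was the low one for Pgr, at 4.97 CPM.

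Stabilized replicate 4 was high for satellite-like genes, at 31.7% of the scaled total, and for Gm10720, at 908 CPM. It was low for Sp5 at 26.1, Col17a1 at 760.3, Col5a1 at 237 and Col4a1 at 214 CPM, and for matrix genes at 0.54%. Among controls, replicate 1 stood apart for Fzd6 (91), Bmp4 (0.321), Isl1 (1.28) and Cdkn1c (70.4 CPM), and for cell-cycle genes at 1.21%. Control replicate 2 did so for Bmp7 at 270.0 CPM, control replicate 4 for satellite-like genes at 0.32%, and control replicate 5 for Wnt4 (13.9), Myh3 (11.7) and Lor (6.68 CPM) and for luminal genes at 0.221%.

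The effect of genotype differed between stages for 92 of the named genes (edgeR interaction, adjusted p under 0.05). Differences are E16.5 minus E13.5 on the log2 scale. Among Wnt genes the difference was 0.59 for Ctnnb1, 2.75 for Axin2, 3.50 for Lef1, 1.80 for Apcdd1, 8.04 for Sp5 and 4.19 for Notum. Ligands gave 4.97 for Wnt4, 2.98 for Wnt10a, 2.75 for Wnt7b, 3.15 for Wnt10b and 2.43 for Wnt5a, receptors 1.75 for Fzd1, 1.33 for Fzd6 and -3.93 for Ror1, and antagonists and falling targets -3.71 for Sfrp1, -2.58 for Sfrp2, -2.13 for Ccnd1 and -2.39 for Myc. In other pathways it was 5.59 for Bmp2, 4.62 for Bmp4, 1.78 for Tgfb2 and 3.07 for Id1. Fgf and Notch genes gave 3.28 for Fgf20, 1.21 for Fgfr3, -2.90 for Etv5, -2.13 for Dusp6, -7.08 for Dll1, 1.07 for Jag1 and -3.07 for Hey1, and Tnfrsf11a -3.5.

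Hair regulators and placode genes gave 4.24 for Sp6, 1.12 for Prdm1, 2.52 for Cux1, 4.65 for Hoxc13, 5.64 for Foxn1, 4.05 for Msx2, 2.42 for Dlx3 and 4.07 for Cxcl14. Structural ones gave 12.90 for Krt33a, 14.16 for Krtap8-1, 13.69 for Krtap3-1, 8.89 for Tchh and 1.86 for Padi3, and epidermal ones 5.31 for Krt1, 4.04 for Krt10, 1.79 for Klf4, 3.40 for Evpl, 1.66 for Grhl1, 3.51 for Sptlc3, 2.05 for Sfn and 2.36 for Hspb1. Adhesion and matrix genes gave 1.99 for Dsp, 2.42 for Cldn1, 1.94 for Gja1, 3.07 for Lama3, 1.79 for Lamb3, 1.88 for Col17a1, -2.24 for Lama1 and -1.86 for Col4a1. Mammary, luminal and basal genes gave -0.71 for Epcam, -1.64 for Cldn7, -1.32 for Krt18, 2.45 for Krt7, -2.27 for Pgr, 1.74 for Gata3, 0.53 for Tbx3 and -0.98 for Erbb3 and 1.32 for Krt5, 2.26 for Krt15, 2.85 for Trp63, 0.98 for Itga6 and 2.10 for Egfr. For genes with the largest falls it was -5.53 for Crispld2, -8.88 for Tgm2, -4.74 for Stk32b and -3.66 for Itga9. Cell-cycle genes gave -2.53 for Mcm3, -2.09 for Rpa2, -1.90 for Lig1, -1.64 for Pcna, -2.65 for Aurkb, -2.76 for Bub1b, -2.26 for Top2a and -1.94 for Mki67, and inhibitors and hormone genes -2.05 for Cdkn1a, 2.50 for Cdkn1c, 0.75 for Igf2 and 4.20 for Vdr. The rest were 1.52 for Col5a1, 6.84 for Spon1, 1.21 for mt-Nd4 and 10.45 for Gm10720. The E16.5 effect of Gm10720 rested on stabilized replicate 4 and was 1.48 without it (edgeR adjusted p = 0.551). Without stabilized replicate 1, the E16.5 effects of Krt1 and Krt10 were 3.47 and 2.76.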

How the results depend on the processing

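Genes past the threshold numbered 7194, and 6434 to 6968 with 1 library left out. With stabilized libraries 1, 4 and 5 left out together there were 4609, of which 1938 were lower, a setting with fewer samples. Offsets of the deposited table gave 5491 and DESeq2 7558. For 138 named genes, 2864 of 2891 values kept their direction and side of the threshold, 22 lost the call (11 genes), 5 gained it (Krt14 and Mki67) and 0 changed direction. Satellite-like genes higher numbered 11, but 0 in DESeq2, 2 in the 10 E16.5 libraries alone, 0 with the replicate block, 0 without stabilized libraries 1, 4 and 5, and 0 to 11 with 1 library left out (0 without stabilized replicate 4, and 5 or 6 without control replicate 1, 2, 3 or 5). Replicate numbers did not pair the libraries: deviations of same-numbered libraries correlated at 0.00168, 0.106, -0.00654, 0.131 and -0.0995. With the replicate number as a block, 7382 genes were called, 6576 of them in the same direction. Krt1, Krt10 and Edar then lost their calls (adjusted p = 0.0512, 0.0919 and 0.0599). Mki67 gained one (adjusted p = 0.0265).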

Other observations

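Gene families defined by the root of their symbol, with at least 10 tested members, were counted after all values were known, 208 families in all, and those below were picked for their counts. All 11 kallikrein peptidases (Klk) and all 13 late cornified envelope genes (Lce) rose, the former with a median log2 fold change of 6.35, and 13 of 17 Serpinb protease inhibitors rose, with a median of 3.17. Kallikreins shed the outermost skin cells, and Serpinb proteins restrain proteases of the epidermis. Among the 5 stabilized libraries, replicate 1 was the highest for 9 of 11 Klk, 11 of 13 Lce and 12 of 17 Serpinb genes, and its part in these counts was not tested. Of these genes 2 Klk, 11 Lce and 3 Serpinb had 0 counts in all controls and could pass the filter through stabilized libraries, so the counts are not read against all genes.

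Some families of general cell machinery held many genes that fell by small amounts, and others few. Of 21 nucleoporin genes (Nup) 18 fell, with a median of -0.76, and of 10 nucleolar genes (Nol) 8 fell, with a median of -0.71. Of 14 genes for import into mitochondria (Timm) 11 fell (median -0.61), as did 8 of 11 splicing factors of the Srsf family (-0.57), 7 of 10 exosome genes (Exosc, -0.56), 9 of 15 Integrator genes (Ints, -0.41) and 8 of 14 Psmd genes of the proteasome (-0.34). Genes with the root Mcm, such as Mcm3, fell in 9 of 10 cases, with a median of -1.03. A root is only the first letters of a symbol, so a family can hold genes of other function. In other families the share that fell was 2.94% of 68 Rpl genes of the ribosome, 18.2% of 11 Psmb genes of the proteasome, 16.7% of 12 Ndufb genes and 13% of 23 Cox genes of the respiratory chain. For all tested genes 19.4% fell and the median was 0.10.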
